A study of Homo sapiens with 6 samples.

Results

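The 10 genes RIGI, IFIH1, DHX58, TLR3, MAVS, TICAM1, STING1, TRAF3, TBK1 and IRF3, which detect foreign or misplaced nucleic acid or pass the alarm on, were followed across the libraries of an RPL13 knockdown in U251, a human glioma cell line. They were chosen by symbol: the first 4 are RNA sensors, the next 4 adaptors, TBK1 a kinase gene and IRF3 a transcription factor gene. Of the 10, 9 were measured among the 21429 genes of the table, and all 9 lay above the low-value filter that left 15327 genes for testing. DHX58 is not analysed here, which leaves 3 sensors.

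The knockdown cultures (siRPL13) had been electroporated with an siRNA against RPL13, a protein gene of the large ribosomal subunit, and the controls (siNC) with a control siRNA. Both groups carried the same stable amyloid precursor protein transgene with the changes K670N and M671L, both were electroporated with short duplex RNA, and in both doxycycline at 1 µg/mL, added 24 h after electroporation when the medium was renewed, switched the transgene on before RNA was taken at 72 h. Each group held 3 libraries, described as biological replicates. P-values measure the spread between these libraries, since nothing more is said of how far the cultures were independent.

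As background, RIG-I (RIGI) and MDA5 (IFIH1) are cytosolic helicases that bind viral or unusual cellular duplex RNA and signal through MAVS on the mitochondrial surface. TLR3 binds duplex RNA in endosomes and signals through TRIF, the product of TICAM1. STING1 lies in the endoplasmic reticulum and answers a cyclic dinucleotide made by the DNA sensor cGAS. The routes converge on TBK1, those of MAVS and TRIF by way of TRAF3. TBK1 phosphorylates IRF3, and IRF3 then switches on interferon beta. The sensor genes are themselves known interferon-stimulated genes in many human cells.

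The promoters of the 3 sensors and of 1 adaptor are shown because the sensors varied together below while MAVS varied least. RefSeq promoters (GRCh38.p14), covering 250 bases before to 50 bases after the annotated start, were at hand for 7 of the 10 genes. The search, on both strands, used the core letters of the interferon-stimulated response element, GAAA, any 2 bases and GAAA again. These letters occurred in 1248 of 34943 promoters (3.57%) and in 2 of the 7, those of IFIH1 and TLR3. IFIH1 lies at chr2:162318635-162318934 on the minus strand, TLR3 at chr4:186068906-186069205 on the plus strand, RIGI at chr9:32526147-32526446 on the minus strand and MAVS at chr20:3846584-3846883 on the plus strand. Capitals mark the letters or their reverse complement in IFIH1 and TLR3. In RIGI they mark GAAANGAAA, a form with 1 base between the repeats that was added after the sequence had been read.
IFIH1: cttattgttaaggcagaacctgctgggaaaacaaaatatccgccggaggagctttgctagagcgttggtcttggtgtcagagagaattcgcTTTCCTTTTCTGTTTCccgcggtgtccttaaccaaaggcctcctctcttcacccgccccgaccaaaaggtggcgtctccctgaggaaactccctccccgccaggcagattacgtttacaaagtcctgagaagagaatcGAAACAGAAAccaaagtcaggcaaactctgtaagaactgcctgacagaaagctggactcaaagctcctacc
TLR3: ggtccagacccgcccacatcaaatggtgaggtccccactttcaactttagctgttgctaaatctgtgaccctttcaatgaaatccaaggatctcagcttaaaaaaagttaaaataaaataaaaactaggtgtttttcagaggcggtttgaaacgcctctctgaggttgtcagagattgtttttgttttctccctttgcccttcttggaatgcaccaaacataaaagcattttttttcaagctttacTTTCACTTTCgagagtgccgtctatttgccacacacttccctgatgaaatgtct
RIGI: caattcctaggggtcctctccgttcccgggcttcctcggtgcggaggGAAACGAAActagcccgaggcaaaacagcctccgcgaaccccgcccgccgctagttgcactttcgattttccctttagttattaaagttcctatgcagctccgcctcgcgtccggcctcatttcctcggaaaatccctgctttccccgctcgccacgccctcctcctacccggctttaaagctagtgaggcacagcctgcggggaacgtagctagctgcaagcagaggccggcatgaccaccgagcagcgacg
MAVS: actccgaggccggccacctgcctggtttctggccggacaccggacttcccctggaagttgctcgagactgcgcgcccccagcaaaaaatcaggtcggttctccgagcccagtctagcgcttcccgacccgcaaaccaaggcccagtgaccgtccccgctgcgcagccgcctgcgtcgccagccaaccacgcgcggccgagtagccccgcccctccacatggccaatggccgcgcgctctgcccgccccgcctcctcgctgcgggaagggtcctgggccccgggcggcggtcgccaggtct

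IFIH1 held 3 matches, of which the first pair, with first bases at -159 and -153 from the start, overlapped each other and the last began at -21. The TLR3 match began at -4. The form with 1 base between the repeats occurred in 3.12% of all promoters, and the RIGI match began at -203. No match was found in the windows of MAVS, TICAM1, TRAF3 or TBK1. No promoter was at hand for STING1, IRF3 or DHX58, so these were not searched. The letters therefore cannot be compared between STING1, the adaptor that fell with the sensors below, and the other adaptors. A match is a run of letters and was not tested as a binding site.

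The level of RPL13 decided how the libraries were read. Values are regularized-log (rlog) values, a log2 scale that allows for library size and shrinks uncertain differences. The siRPL13 values of RPL13 were 13.03, 13.12 and 14.09 for replicates 1 to 3, against 14.05, 14.16 and 14.18 in siNC, so it was not lowered in the library labelled siRPL13 replicate 3. Over all tested genes the library labelled siRPL13 replicate 3 correlated more closely with siNC replicate 2 (r = 0.9991 over 15327 genes) than with siRPL13 replicate 1 (r = 0.9956) or 2 (r = 0.9965). Differences are therefore given both for all 6 libraries and for 5, without the library labelled siRPL13 replicate 3. That choice used the RPL13 level, so RPL13 is given as a description here. "Rose" and "fell" refer to an adjusted p under 0.05 in limma, a linear model fitted across all genes, in the 5-library comparison. Depth per library is unknown. Values were present for 6 of the 7 listed astrocyte and glioma markers and for 3 of the 7 leukocyte and microglia markers. Of the astrocyte and glioma markers, GFAP lay between 14.73 and 15.50 and VIM between 15.90 and 16.33, but S100B only between 5.48 and 5.83. The leukocyte markers CD68 (0.36 to 0.40) and ITGAM (0.19 to 0.22) lay near the floor of the scale. Of 6 astrocyte and glioma markers tested, VIM and NES fell in the 5-library comparison and 0 rose, against 10.7% of all tested genes lower. Of the 2 endothelial markers tested, CDH5 fell by 0.46 ± 0.08 (SE, log2; adjusted p 0.00340, limma) and VWF did not pass. CDH5 stood at 5.84, 5.99 and 6.25 in siRPL13 replicates 1 to 3, against 6.43, 6.41 and 6.30 in siNC, so that all 3 siRPL13 libraries lay below the controls. CSF1R, also a leukocyte marker, stood at 4.88, 4.99 and 5.22 in siRPL13 replicates 1 to 3, against 5.02, 5.05 and 5.00 in siNC. The part of these markers in the results was not tested.

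The 3 RNA sensors were lowest in the libraries in which RPL13 was lowered and highest in the siRPL13 library in which it was not. In the 5-library comparison RIGI, IFIH1 and TLR3 all fell, as did the adaptor gene STING1, while MAVS, TICAM1, TRAF3, TBK1 and IRF3 did not pass the test. That is 4 of 9 genes lower and 0 higher, against 10.7% of all tested genes lower and 8.42% higher; the same 4 genes, and 33.4% of all tested genes, had an unadjusted p under 0.05. With all 6 libraries 0 of the 9 genes passed, as did 0.0% of all tested genes (smallest adjusted p 0.589, limma); 0 of the 9 and 1275 of the 15327 (8.32%) had an unadjusted p under 0.05.

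IFIH1 (ENSG00000115267, GRCh38 chromosome 2, 162267079 to 162318703, minus strand) encodes MDA5, the sensor of long duplex RNA. Its rlog values were 9.62, 10.05 and 11.61 in siRPL13 replicates 1 to 3, against 10.91, 11.20 and 10.33 in siNC replicates 1 to 3. The first pair of siRPL13 libraries lay below every siNC library and the library labelled siRPL13 replicate 3 lay above every one, so the groups overlapped as labelled. Without that library IFIH1 fell by 0.98 ± 0.20 (SE, log2; adjusted p 0.00770, limma), to 50.8% of siNC on the rlog scale. With all 6 libraries the log2 difference was -0.39 ± 0.45 (SE), with an adjusted p of 0.778 (limma) and a 95% interval from -1.41 to 0.64.

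RIGI (ENSG00000107201, chromosome 9, 32455705 to 32526324, minus strand) encodes the sensor of short duplex RNA with a triphosphate end. It stood at 11.18, 11.68 and 12.82 in siRPL13 replicates 1 to 3, against 12.46, 12.48 and 11.79 in siNC. As for IFIH1, siNC replicate 3 was the lowest control, and siRPL13 replicate 2 lay only just under it. In the 5-library comparison RIGI fell by 0.82 ± 0.19 (SE, log2; adjusted p 0.0135, limma), to 56.7% of siNC. The difference was -0.35 ± 0.37 (SE, log2; adjusted p 0.757, limma) over all 6 libraries.

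TLR3 (ENSG00000164342, chromosome 4, 186069152 to 186088069, plus strand), the endosomal receptor, stood at 6.94, 7.08 and 8.19 in siRPL13 replicates 1 to 3, against 7.61, 7.77 and 7.23 in siNC. It had the same pattern as the helicases, with a narrower range of 1.25 log2 units, against 1.65 for RIGI and 1.99 for IFIH1. TLR3 fell by 0.53 ± 0.13 (SE, log2; adjusted p 0.0200, limma), to 69.4% of siNC, in the 5-library comparison. Over all 6 libraries the difference was -0.13 ± 0.30 (SE, log2; adjusted p 0.890, limma).

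Leaving out a lowered library leaves 1 siRPL13 library, assumed to vary like the controls, and this ended some calls. Every difference of RIGI, IFIH1, TLR3 and STING1 had to stay below 0, since both lowered libraries lay below every siNC library. The calls ended without siRPL13 replicate 1, where the log2 differences were -0.76 for IFIH1, -0.57 for RIGI, -0.46 for TLR3 and -0.41 for STING1. Those of TLR3 and STING1 moved little and those of the helicases shrank more. Without siRPL13 replicate 2 the difference of TLR3 was larger, -0.60, but its call ended, while IFIH1, RIGI and STING1 kept theirs. A variance trend robust to outlying genes leaves the differences as they are and changes their errors. The SE then became 0.33 for RIGI (adjusted p 0.209, limma) and 0.35 for IFIH1 (0.170), which no longer passed, while TLR3 (0.0309) and STING1 (0.00189) did.

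STING1 (ENSG00000184584, chromosome 5, 139475534 to 139482935, minus strand) was the adaptor that went with the sensors. It stood at 9.41, 9.43 and 10.02 in siRPL13 replicates 1 to 3, against 9.81, 9.98 and 9.76 in siNC. The SD of its siNC libraries was 0.12, against 0.28 to 0.44 for the sensors. STING1 fell by 0.43 ± 0.07 (SE, log2; adjusted p 0.00343, limma), to 74.3% of siNC, in the 5-library comparison, and differed by -0.23 ± 0.15 (SE, log2; adjusted p 0.648, limma) over all 6 libraries. In bulk RNA, fewer cells that express a gene and less RNA per cell cannot be told apart.

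**Figure D1:**
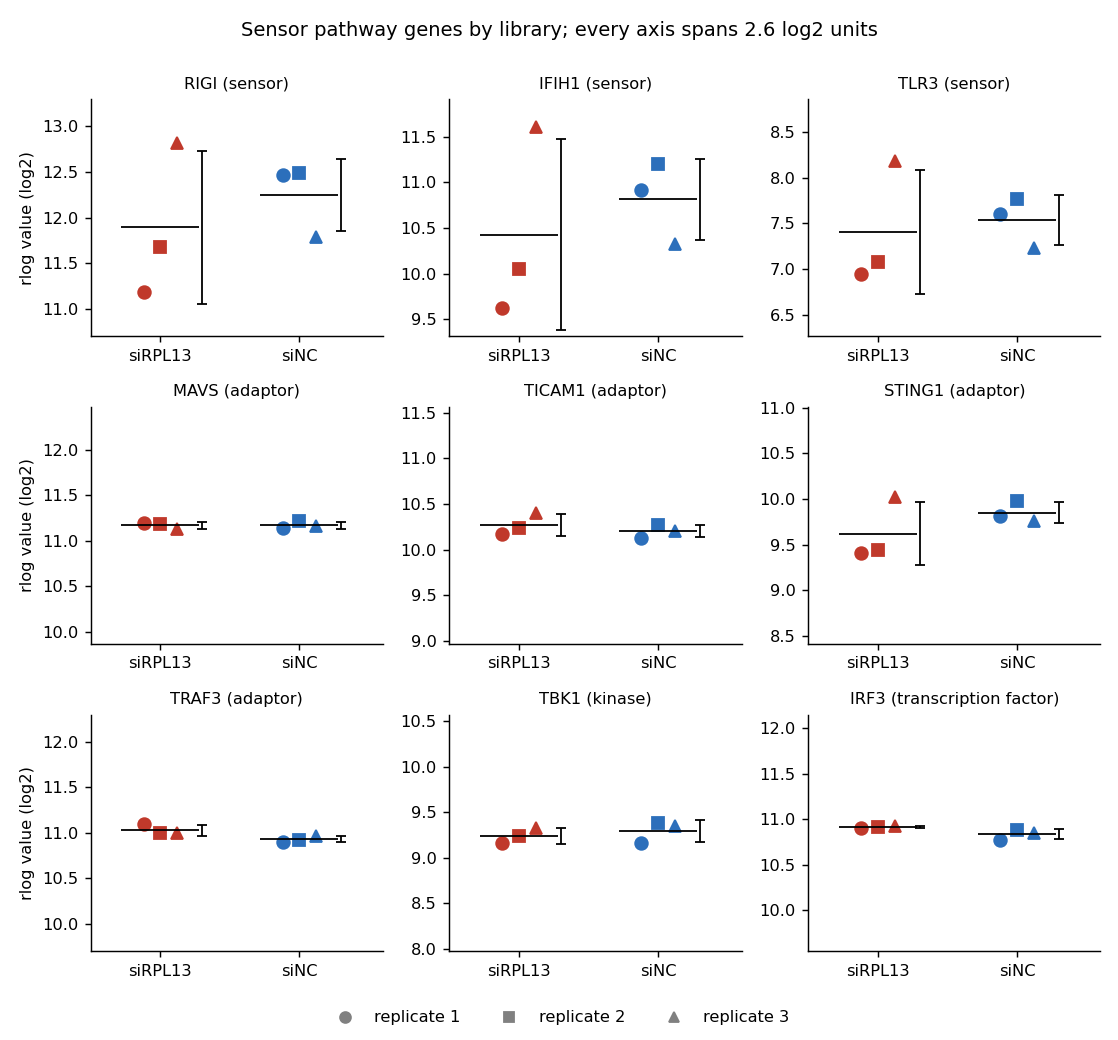
Rlog values (vertical axes, log2, each spanning the same length and not starting at 0) of the 9 genes in the 3 siRPL13 (red) and 3 siNC (blue) libraries, the shape giving the replicate number, with a line for the mean and a bar for ± SD (n = 3). RIGI, IFIH1, TLR3 and STING1 are highest in the library labelled siRPL13 replicate 3 (12.82, 11.61, 8.19 and 10.02) and lowest in siRPL13 replicate 1, while the 6 MAVS values lie between 11.13 and 11.21.

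The other adaptors did not pass the test, and MAVS varied least of the 9 genes. MAVS (ENSG00000088888, chromosome 20, 3846799 to 3876123, plus strand), the mitochondrial adaptor of both helicases, stood at 11.20, 11.19 and 11.13 in siRPL13 replicates 1 to 3, against 11.14, 11.21 and 11.16 in siNC. The groups overlapped, and the difference was 0.02 ± 0.05 (SE, log2) in the 5-library comparison, with a 95% interval from -0.09 to 0.13 (adjusted p 0.807, limma). A change of MAVS by as much as that of any sensor or of STING1 lay outside that interval. Its SD over the 6 libraries exceeded that of 3.20% of tested genes, that of TRAF3 exceeded 26.3% and that of TICAM1, near the middle of all genes, exceeded 52.3%, whereas those of RIGI, IFIH1 and TLR3 exceeded 99.7%, 99.8% and 99.4%, and that of STING1 exceeded 97.2%.

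TICAM1 (ENSG00000127666, chromosome 19, 4815932 to 4831704, minus strand), whose product TRIF serves TLR3, stood at 10.17, 10.23 and 10.40 in siRPL13, against 10.13, 10.27 and 10.20 in siNC. The library labelled siRPL13 replicate 3 was again the highest, and the rest overlapped. The 5-library difference was -0.0011 ± 0.06 (SE, log2; 95% interval -0.13 to 0.13; adjusted p 0.992, limma). The range of TICAM1, 0.27 log2 units, was a small part of that of TLR3, the receptor it serves.

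TRAF3 (ENSG00000131323, chromosome 14, 102777476 to 102911500, plus strand) encodes a ubiquitin ligase that joins MAVS and TRIF to the kinase. It had the highest difference among the adaptors in both comparisons and did not pass in either. It stood at 11.09, 10.99 and 10.99 in siRPL13, against 10.90, 10.92 and 10.97 in siNC. All 3 siRPL13 libraries lay above the siNC libraries, without overlap, as was the case for 13.8% of all tested genes over 6 libraries. The difference was 0.09 ± 0.06 (SE, log2; 95% interval -0.04 to 0.23; adjusted p 0.631, limma) over all 6 and 0.11 ± 0.05 (adjusted p 0.178, limma) over 5 libraries.

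TBK1 (ENSG00000183735, chromosome 12, 64451880 to 64502108, plus strand), the kinase downstream of the adaptors, stood at 9.16, 9.23 and 9.33 in siRPL13, against 9.16, 9.38 and 9.35 in siNC, with overlap. Its 5-library difference was -0.10 ± 0.08 (SE, log2; 95% interval -0.27 to 0.07; adjusted p 0.387, limma). IRF3 (ENSG00000126456, chromosome 19, 49659569 to 49665875, minus strand) stood at 10.91, 10.91 and 10.93 in siRPL13, against 10.78, 10.88 and 10.85 in siNC. Its groups did not overlap in either comparison, but the difference of 0.07 ± 0.05 (SE, log2; 95% interval -0.05 to 0.19; adjusted p 0.378, limma) over 5 libraries did not pass. Of its exonic bases 19.3% are shared with BCL2L12 on the opposite strand, and 14.7% of those of TBK1 with the antisense gene AC135279.3. No source used here says whether reads were counted by strand, so reads of these pairs may not have been told apart. In all, the groups of 6 of the 9 genes did not overlap in the 5-library comparison, against 51.3% of tested genes.

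**Figure D2:**
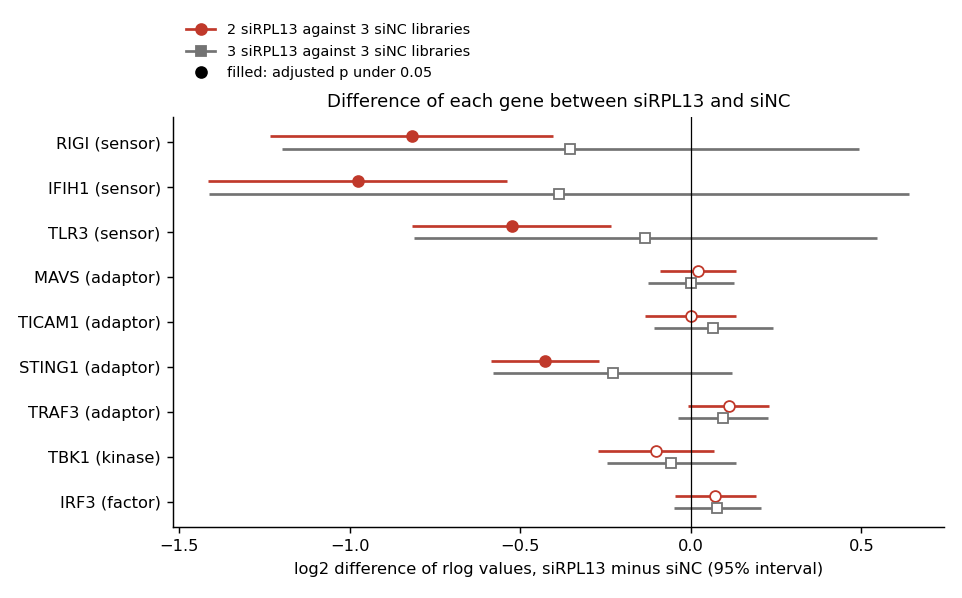
Log2 difference of rlog values, siRPL13 minus siNC (horizontal axis), for each gene with its 95% interval, from 2 siRPL13 against 3 siNC libraries (red circles) and from all 6 libraries (grey squares), filled where the adjusted p is under 0.05. IFIH1, RIGI, TLR3 and STING1 are filled in the 5-library comparison at -0.98, -0.82, -0.53 and -0.43, and no gene is filled with all 6 libraries.

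Sensors and adaptors were set against each other library by library, as a description with no test, because the genes were chosen with earlier results of these data known. Relative to the siNC mean, the median of the 3 sensors was -1.07, -0.57 and 0.65 in siRPL13 replicates 1 to 3 and 0.10, 0.24 and -0.46 in siNC replicates 1 to 3 (log2). The median of the 4 adaptors was -0.0038, 0.02 and 0.11 in siRPL13 and -0.04, 0.05 and -0.0027 in siNC. The sensors thus spanned a wide band in the controls alone, in which siNC replicate 3 lay 0.46 below the mean, almost as far as siRPL13 replicate 2. The median log2 difference of the sensors minus that of the adaptors was -0.83 in the 5-library comparison and -0.39 over all 6 libraries.

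Of the 9 genes, 4 ordered the 6 libraries identically. The same order was held by 15 of the 86 tested list genes read below, TRIM25, ADAR, MYD88 and ISG15 among them. RIGI, IFIH1, TLR3 and STING1 all ran from siRPL13 replicate 1 through siRPL13 replicate 2, siNC replicates 3, 1 and 2 to the library labelled siRPL13 replicate 3, an order held by 303 of the 15327 tested genes (1.98%). Over the 6 libraries, which share their preparation and scaling, RIGI correlated with IFIH1 at r = 0.99, with TLR3 at r = 0.96 and with STING1 at r = 0.92 (Pearson, n = 6 libraries), with a Spearman rho of 1.00 in each case. Against MAVS and TRAF3 the coefficients of RIGI were -0.54 and -0.71 (Spearman -0.43 and -0.37), and against TICAM1, TBK1 and IRF3 they were 0.57, 0.46 and -0.19 (Spearman 0.60, 0.60 and 0.09). These describe 6 points in which the siRPL13 libraries sit at both ends.

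**Figure D3:**
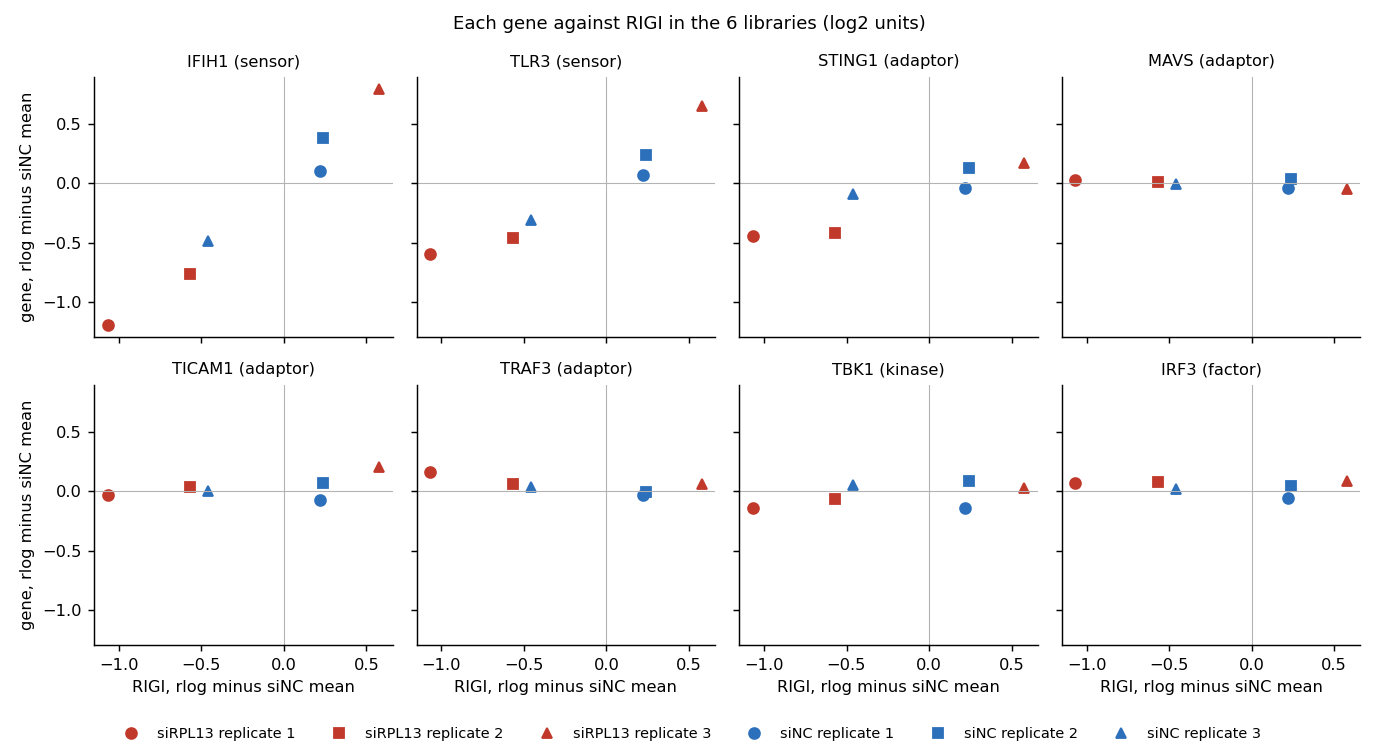
Rlog value minus the siNC mean (log2) of 8 genes (vertical axes) against that of RIGI (horizontal axes), with 1 point per library, siRPL13 in red and siNC in blue, the shape giving the replicate number. IFIH1, TLR3 and STING1 rise with RIGI from siRPL13 replicate 1 (-1.19, -0.60 and -0.44) to the library labelled siRPL13 replicate 3 (0.79, 0.65 and 0.17), and MAVS stays between -0.04 and 0.04.

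With the members and the listed genes set apart, the genes most alike to the mean of the sensors were CELSR3, ZNFX1, SP110, USP18 and OAS2 (Pearson r from 0.996 to 0.999 among 1041 genes compared, n = 6 libraries). The lists may not hold every gene of nucleic acid sensing. These 5 genes encode, in that order, a cadherin, a helicase with zinc fingers, a nuclear body protein, a protease that removes ISG15 and an oligoadenylate synthetase. Their ranges ran from 0.56 log2 units in CELSR3 to 3.17 in OAS2. The genes most alike to the mean of the adaptors, a mean in which STING1 varied most, were ANPEP, TMEM132A, CDK18, KRT75 and ERF (closest in ANPEP, r = 0.993).

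Further genes of nucleic acid sensing were read from 6 lists. Of 106 genes listed, 86 were tested; 24 fell and 7 rose in the 5-library comparison, against 10.7% and 8.42% of all tested genes. Their median log2 difference was -0.04, against -0.0014 over all tested genes. With all 6 libraries 0 of the 86 passed limma and 5 had an unadjusted p under 0.05.

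Of 20 tested regulators of the RIG-I-like receptors, 5 fell and 2 rose (median log2 difference -0.04). Of all tested genes 10.7% fell, and the share that rose was near the 8.42% of all tested genes. TRIM25, the ubiquitin ligase linked to RIG-I activation, fell by 0.77 ± 0.12 (SE, log2; adjusted p 0.00218, limma). It stood at 12.003, 12.36 and 13.28 in siRPL13 replicates 1 to 3, against 13.01, 13.13 and 12.71 in siNC, in the library order of RIGI. NLRC5 fell by 0.74 ± 0.14 and TRIM14, a MAVS-bound protein, fell by 0.69 ± 0.13. CYLD, a deubiquitinase that restrains RIG-I, rose by 0.29 ± 0.05 and PRKRA, an activator of the kinase PKR, rose by 0.25 ± 0.06.

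Among 19 tested genes of DNA sensing and nucleases, 5 fell and 2 rose (median -0.04), against 10.7% and 8.42% of all tested genes. The share that rose was near that of all tested genes. DNASE2, the lysosomal DNase, fell by 0.57 ± 0.06, SAMHD1, a dNTP hydrolase, fell by 0.54 ± 0.16 and TRIM56, a ubiquitin ligase of the cGAS and STING route, fell by 0.43 ± 0.08 (SE, log2). DNASE2 differed in pattern from the sensors, at 11.23, 11.26 and 11.86 in siRPL13 and 11.71, 11.90 and 11.81 in siNC, so that the library labelled siRPL13 replicate 3 lay within the controls. PRKDC, the DNA-dependent protein kinase, rose by 0.27 ± 0.06 and DDX41, a helicase, rose by 0.24 ± 0.05.

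Of 15 other RNA-binding genes, 3 fell and 2 rose (median 0.04), against 10.7% and 8.42% of all tested genes. ADAR, which edits duplex RNA, fell by 0.56 ± 0.10, EIF2AK2, which encodes PKR, fell by 0.48 ± 0.12 and STAU1 fell by 0.17 ± 0.05 (SE, log2). NLRP1, an inflammasome sensor, had the largest rise of these lists, 0.59 ± 0.08 (adjusted p 0.00153, limma). It stood at 9.86, 9.61 and 8.92 in siRPL13, against 9.08, 9.24 and 9.12 in siNC, with the library labelled siRPL13 replicate 3 below every control. DDX21 rose by 0.22 ± 0.05.

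Of 7 tested genes of the endosomal Toll-like receptors, 2 fell and 1 rose (median -0.15), against 10.7% and 8.42% of all tested genes. MYD88, the adaptor of the receptors other than TLR3, fell by 0.55 ± 0.10 and CNPY3, a receptor chaperone, fell by 0.32 ± 0.07 (SE, log2). The kinase IRAK1 rose by 0.33 ± 0.06. Between adaptors and transcription, 1 of 16 genes fell and 0 rose (median -0.04): CASP8, a protease, fell by 0.23 ± 0.07. Of all tested genes 10.7% fell and 8.42% rose, and a count of 1 in 16 is too small to set this list apart. Among early IRF3 target genes 8 of 9 fell and 0 rose, against 10.7% and 8.42% of all tested genes, with a median of -1.06. Without siRPL13 replicate 1 as well, 0 of the 9 passed limma (7 had an unadjusted p under 0.05), without siNC replicate 2 it was 5, and with the robust trend it was 2. Over all tested genes, 1355 were lower without siNC replicate 2 and 1619 with the robust trend. ISG15, a ubiquitin-like protein, fell by 1.24 ± 0.25, IFIT3 fell by 1.22 ± 0.30 and IFIT1 fell by 1.22 ± 0.23 (SE, log2). These genes are induced by interferon as well as by IRF3.

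The position of the library labelled siRPL13 replicate 3 differed with direction. Of the 24 list genes that fell in the 5-library comparison, 20 stood above every siNC library there and 2 below, against 722 and 325 of all 1642 genes that fell (44.0% above). Of the 7 that rose, 0 stood above every siNC library there and 4 below, against 309 and 424 of all 1291 that rose. The pathway genes were listed with earlier results known, so these counts carry no test. With all 4 of RIGI, IFIH1, TLR3 and STING1 above every siNC library, that library raised the siRPL13 mean of each.

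**Figure D4:**
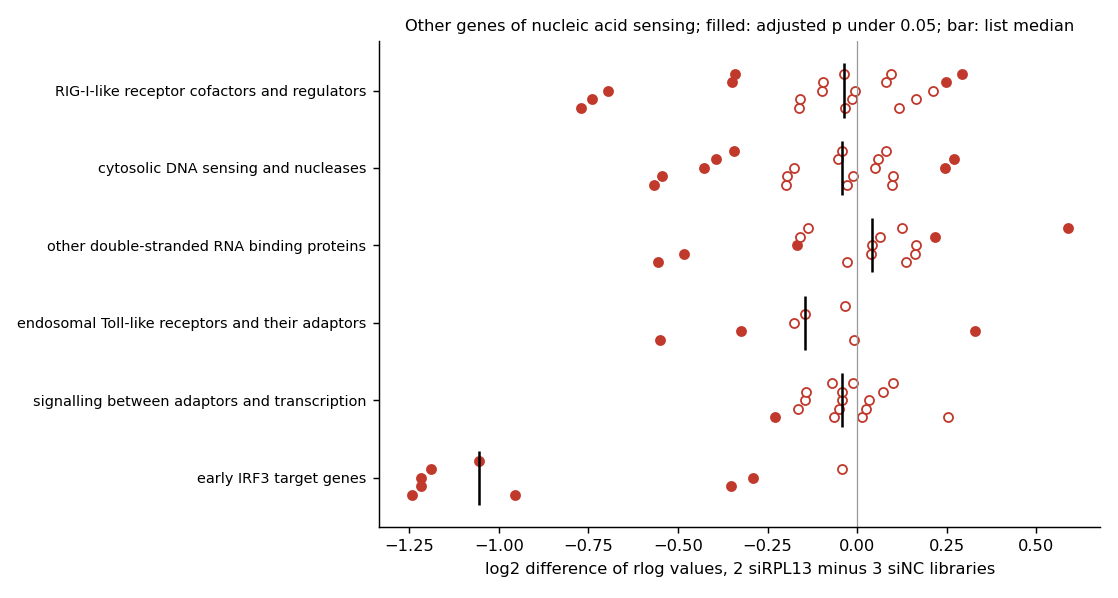
Log2 difference of rlog values, 2 siRPL13 minus 3 siNC libraries (horizontal axis), for each tested gene of 6 lists (rows), filled where the adjusted p is under 0.05, with a bar at the list median. The early IRF3 targets have their median at -1.06, and the other 5 lists have medians from -0.15 to 0.04 with filled points on both sides of 0 in 4 of them.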

How the data were processed

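RNA of 3 siRPL13 and 3 siNC cultures was sequenced. The authors deposited 1 rlog value per Ensembl gene and library (log2 scale, going by the table's own name and its values). Tools listed in the submitters' processing notes, without roles, are DESeq2, HTSeq 0.6.1p1, TopHat and Trimmomatic 0.33, with build GRCh38.p7. Rlog pulls genes with few reads towards their mean, so their differences are understated, and levels are not per length. Depth cannot be read from the table, so no count model or counting interval was used.

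Symbols came from a table of current names (20499 of 21429 identifiers) and positions from GENCODE 29. Genes averaging 3 rlog units or more were tested with limma 3.58.1 in R 4.3.3 (two-sided, moderated variances with an intensity trend) and Benjamini-Hochberg adjustment over all 15327, threshold 0.05. Intervals are 95%. The code was checked on simulated data. No 2 libraries shared an identical value among tested genes.

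The members, the pathway lists and the 5-library comparison were chosen with earlier results of these data known. All members are named, with up to 3 genes per list and direction with the largest difference among those that passed, and the 5 genes with the highest correlation to the sensor and adaptor means (mean rlog of at least 5, SD of at least 0.2; members and list genes set apart). NLRP1 and DNASE2 patterns were singled out after their values were seen. Motifs were searched in RefSeq promoters of GRCh38.p14. Alternatives were library weights, a filter of 5 or none, quantile scaling, median centring, no or a robust trend, a replicate block and leaving out each library.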

Additional observations from a re-analysis of the deposited data

How the results depend on the processing

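With all 6 libraries, library weights gave 5309 genes called (2601 higher, 2708 lower). They called 2 of the 9 genes lower (IFIH1 and STING1), and 26 list genes lower and 14 higher. The weights of siRPL13 replicates 1 to 3 were 0.99, 7.19 and 0.16. That setting thus rested mostly on siRPL13 replicate 2 and counted the library labelled siRPL13 replicate 3 for little. Every other setting that kept the library labelled siRPL13 replicate 3 called 0 (limma, 489 to 1562 genes at an unadjusted p under 0.05). Leaving out each library gave 0 to 2933 genes called (0 to 1291 higher, 0 to 1642 lower), 0 to 4 of the 9 lower, and 0 to 24 list genes lower and 0 to 7 higher, the upper ends all without the library labelled siRPL13 replicate 3. The sensor minus adaptor median then ran from -0.83 to -0.0073, the upper end without siRPL13 replicate 1. Leaving out a library gave ranges that cross 0 for RIGI (-0.82 to 0.0044), IFIH1 (-0.98 to 0.016), TLR3 (-0.53 to 0.10), MAVS (-0.017 to 0.021) and TICAM1 (-0.0011 to 0.12). MAVS, at -0.00014 as deposited, was 0.0098 with quantile scaling, 0.0052 with median centring and 0.014 with library weights.

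With 5 libraries, leaving out a further library gave 243 to 3748 genes called (102 to 1734 higher, 141 to 2014 lower), 0 to 4 of the 9 lower, and 2 to 25 list genes lower and 1 to 14 higher, the lowest counts without siRPL13 replicate 1. A robust trend left 2 of the 9 and 12 list genes lower. Library weights called 2007 genes higher and 12 list genes higher. TICAM1, at -0.0011, was 0.011 with quantile scaling and 0.0075 with median centring, and -0.036 to 0.033 without a further library. Causes were not tested. RIGI, IFIH1, TLR3 and STING1 kept their sign in every 5-library setting. Leaving out a library could not change it, since siRPL13 replicates 1 and 2 lay below every siNC library for each. The promoter letters occurred in 2 of 7 members when the search ended at the first 2 letters of the second repeat (20.3% of all promoters) and 1 of 7 when a C had to follow it (0.793%).

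Deviations from the group mean correlated between same-numbered libraries at r = 0.08, -0.43 and -0.33 for replicates 1 to 3. The siRPL13 mean includes the library in which RPL13 was not lowered, so these coefficients cannot show whether the numbers mark pairs. The numbers were not taken as pairs. With the replicate number as a block 0 genes were called, 1043 at an unadjusted p under 0.05 (limma). The unknown depth leaves the precision of low values unstated.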

Other observations

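Genes on either side of the sensors that lay below the filter were read as values only. CGAS, whose product makes the messenger that STING answers, stood at 1.58, 1.58 and 1.54 in siRPL13 replicates 1 to 3, against 1.55, 1.53 and 1.53 in siNC, near the low end of the table. ZBP1, a sensor of nucleic acid in the Z form, stood at 0.19, 0.21 and 0.26 in siRPL13, against 0.19, 0.21 and 0.19 in siNC. At such values rlog has pulled the libraries together, and no difference can be read.

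IFNB1, the interferon beta gene that IRF3 switches on, stood at 1.71, 1.74 and 1.87 in siRPL13 replicates 1 to 3, against 1.73, 1.72 and 1.72 in siNC. The chemokine gene CXCL11, which was tested and did not pass, stood at 3.75, 3.82 and 4.34 in siRPL13, against 3.79, 3.87 and 3.82 in siNC. CXCL10, which fell in the 5-library comparison, stood at 4.98, 5.11 and 6.34 in siRPL13, against 5.32, 5.51 and 5.18 in siNC. CXCL10 and CXCL11 had their highest value in the library labelled siRPL13 replicate 3, as did RIGI, IFIH1 and TLR3, and IFNB1 is too low for an order to be read.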
